A study of Mus musculus with 6 samples.

Results

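Hemidesmosomes are the rivet-like junctions that fix basal epithelial cells to the basement membrane, and laminin-332 is the laminin they hold on to. The genes described here are 9 members of that system: the hemidesmosome's membrane proteins Col17a1, Itga6 and Itgb4, its cytoplasmic plakins Dst and Plec, the laminin-332 chains Lama3 and Lamb3, and the laminin-binding partners Itga3 and Cd151. They were chosen by name: every non-control probe whose gene name on the array is one of these symbols, with Plec listed under its older name Plec1. All 9 genes were found, among 27670 gene names on the array and 24839 genes kept for testing. They were covered by 27 probes, of which 26 passed the filter on dim probes (signal well above background in Cy5, the sample's dye, on 2 or more arrays). The 1 probe left out, a Dst probe designed to a neonatal kidney cDNA, was not well above background on any array.

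In the hemidesmosome, the integrin heterodimer of Itga6 and Itgb4 and the transmembrane collagen of Col17a1 span the membrane and bind laminin-332 outside. Inside, the plakins encoded by Plec and by the epithelial transcript of Dst link them to the keratin filaments. In the mammary gland these junctions are known from the basal, myoepithelial layer, which lies on the basement membrane around the luminal cells. Laminin-332 is secreted into the basement membrane as a trimer of chains, of which Lama3 encodes alpha 3 and Lamb3 beta 3.

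RNA came from mammary glands of virgin C57/B6 mice, wild type (WT) or heterozygous for ΔNp63 (het), ΔNp63 being the p63 form that predominates in basal epithelium. P4 was the CD24+CD29hi sort, enriched for mammary stem cells, P5 the CD24+CD29lo sort, enriched for luminal progenitors, and MEC the total mammary epithelial cells. Each of the 6 groups was 1 two-colour Agilent array, with the sample in Cy5 and a reference RNA from 11 mouse cell lines in Cy3 on all of them. Neither the age of the mice, the number pooled per array nor the construction of the mutant allele is given in the sources used here. A value below is the log2 ratio of sample over reference, and a difference is the first group minus the second on that log2 scale.

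No group had a replicate, so there is no spread between animals of a group. Tests used limma's additive model of population and genotype over the 6 arrays, with 2 residual degrees of freedom, with p-values adjusted by Benjamini-Hochberg over all 24839 genes and calls made under 0.05. The precision is limited by the number of arrays. Between 74.3% and 89.8% of the spots on an array were well above background, with WT P4 lowest. The 4 sorted samples shared slide 1 and both MEC samples slide 2, so a difference from MEC cannot be told apart from a slide difference. Each het array also had a later place on its slide than the matching WT array, which leaves genotype and place on the slide confounded: the effects cannot be told apart. Each P5 array likewise lay directly after its P4 array on slide 1, so P4 against P5 and that order cannot be told apart. Markers fitted the sorts: all 7 basal and myoepithelial markers were called higher and 9 of 10 luminal markers lower in P4 than in P5. The summed basal ratio was 413 and 477 on the P4 arrays against 14.1 and 22.1 on the P5 arrays. The summed luminal ratio was 37.1 and 43.6 against 368 and 433. In a sorted bulk sample, fewer cells of a type and less RNA per cell cannot be told apart.

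The targeted gene, Trp63, was read by 3 probes. On its brightest, the log2 ratio in WT and het was 5.99 and 5.48 in P4, 0.54 and 0.89 in P5, and 3.71 and 2.66 in MEC. Het was thus lower than WT in P4 and MEC by 0.50 and 1.04 and higher in P5 by 0.35. With the local backgrounds left as the scanner gave them, the differences were 0.88 in P4, 0.43 in P5 and -0.13 in MEC, so the sign in P4 depends on that step. A second probe, well above background on all 6 arrays, stayed between 0.060 and 0.30. Its het minus WT differences were 0.13 in P4, 0.18 in P5 and 0.046 in MEC. The last probe, well above background on 3 arrays, gave -0.59, -0.20 and 0.057. Whether these probes lie in the part altered in the mutant is not given in the sources used here, and these values do not check the genotype labels.

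P4 against P5 asks how the system differs between the basal and the luminal sort. Of the 9 genes, 6 were called higher in P4 and 0 lower, against 7.58% of all genes called higher and 7.47% called lower. The 6 were Col17a1, Lamb3, Lama3, Cd151, Itga6 and Itga3, with differences from 5.71 down to 0.86. Itgb4 was higher by 0.67 without passing the test, and the brightest probes of the plakins Dst and Plec gave -0.32 and -0.53, also without passing. The median difference over the 9 genes was 1.05, against 0.074 over all genes. Within each genotype taken alone, 1 array against 1, the same 7 genes had the higher value in P4. The share of all genes with that pattern was not counted.

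**Figure D1:**
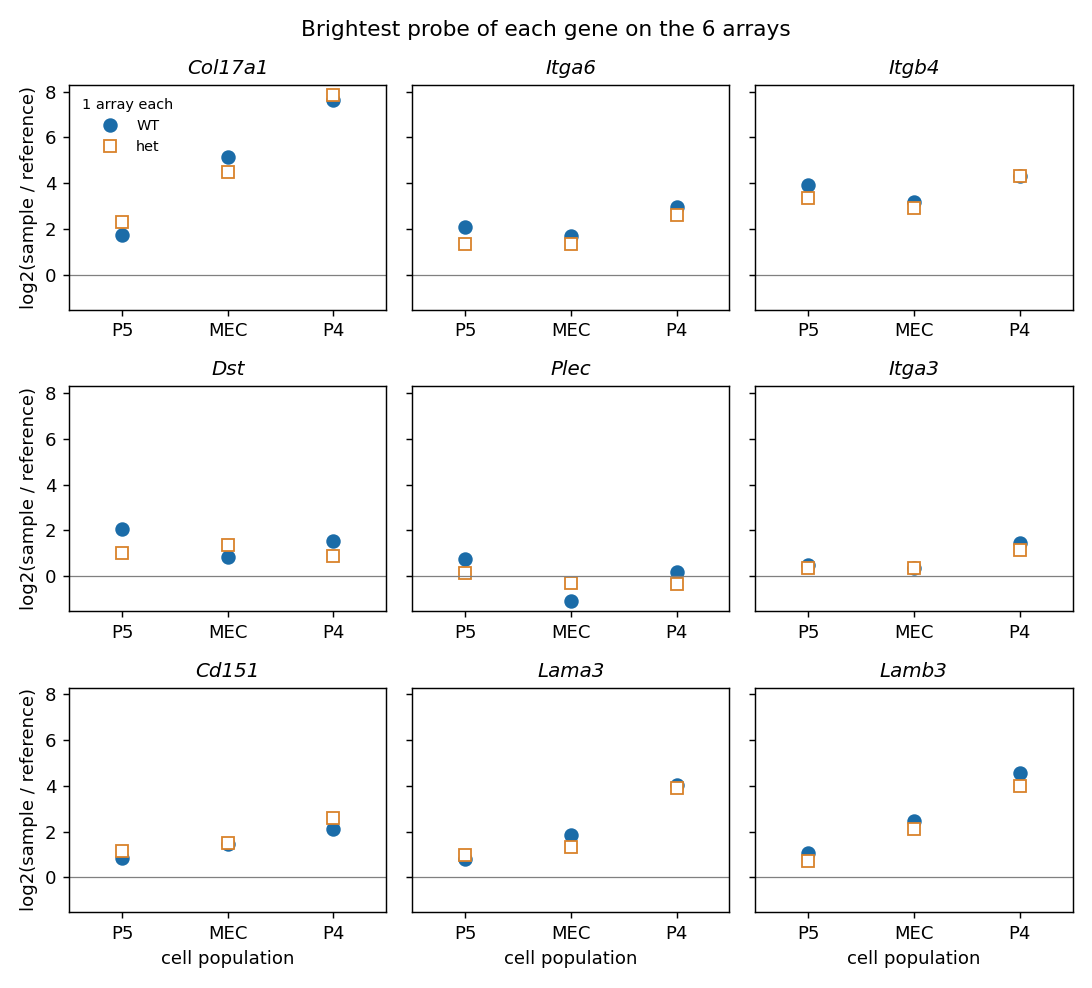
Log2 ratio of sample over reference (y axis) of each gene's brightest probe in the P5, MEC and P4 populations (x axis), with 1 array per point, WT as filled circles and het as open squares. Col17a1, Lama3 and Lamb3 rise from P5 through MEC to P4 in both genotypes, whereas the Dst and Plec probes shown do not.

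Col17a1, collagen XVII, had the widest range of the 9 genes. Its brightest probe read 7.63 in WT P4 and 7.85 in het P4. It read 1.76 in WT P5 and 2.30 in het P5, with the MEC arrays between at 5.14 (WT) and 4.51 (het). The lowest P4 array stood 5.33 above the highest P5 array. The fitted difference was 5.71 (SE 0.29, limma adjusted p = 0.00213), or 52.5-fold. A second Col17a1 probe, whose start lies 312 bases away, read 4.20 and 4.08 in P4 against 0.61 and 0.67 in P5, a difference of 3.50 (adjusted p = 0.00249 over all probes). Both probes thus gave the same order of populations and differed in size.

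Itga6, the alpha 6 integrin subunit, was higher in P4 by a smaller margin. The brightest probe read 2.94 in WT P4 and 2.61 in het P4, 2.09 in WT P5 and 1.36 in het P5, and 1.68 and 1.36 in WT and het MEC. The P4 and P5 arrays did not overlap, and the difference was 1.05 (SE 0.16, limma adjusted p = 0.0173). The other two probes of the gene gave 0.58 (adjusted p = 0.0888 over all probes) and -0.18 (adjusted p = 0.42), the last on a probe designed to a brain cDNA. Averaged over its probes, Itga6 fell to 0.49 and was no longer called (adjusted p = 0.0831).

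Itgb4 encodes the beta 4 subunit, which pairs with alpha 6 and carries the long cytoplasmic tail that plectin binds. The brightest probe read 4.30 in WT P4, 3.93 in WT P5, 4.32 in het P4 and 3.35 in het P5, with 3.16 and 2.93 in WT and het MEC. Both P4 arrays were above both P5 arrays by at least 0.37, and P5 was in turn above MEC. The difference of P4 from P5 was 0.67 (SE 0.18, 95% confidence interval 0.21 to 1.14), with a limma adjusted p of 0.0728. It passed in the fit of the 4 sorted arrays alone, at the same size (adjusted p = 0.0196), a fit with 1 residual degree of freedom that called 28.7% of all genes. The difference was 0.39 with the local backgrounds as given (adjusted p = 0.46), 0.23 with median centring (0.443) and 0.29 as a mean over its probes (0.319). A second probe that shares 50 of its 60 bases gave 0.61, and the last, designed to another transcript variant, -0.42; neither was called.

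Dst was the gene whose probes disagreed most. Dst encodes the giant plakins BPAG1: transcript variant e is the epithelial form that sits in the hemidesmosome, whereas variants a and b are the neuronal and muscle forms. Its probes are named here by the transcript each was designed to, and which variants a probe reads was not established. On the variant e probe the log2 ratio was 4.03 in WT P4 and 3.27 in het P4, 1.38 in WT P5 and 0.49 in het P5, and 2.08 and 1.69 in WT and het MEC. A second probe 606 bases away, designed to a neonatal head cDNA, read 5.31 and 4.55 in P4, 1.58 and 1.52 in P5, and 3.08 and 2.57 in MEC. Both put P4 highest, MEC in the middle and P5 lowest. The differences of P4 from P5 were 2.72 (SE 0.17, limma adjusted p = 0.00211 over all 36643 probes) and 3.38 (SE 0.20, adjusted p = 0.002), 6.59-fold and 10.4-fold.

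The gene's brightest probe was designed to variant a. It read 1.54 in WT P4, 2.04 in WT P5, 0.88 in het P4, 1.02 in het P5, 0.82 in WT MEC and 1.38 in het MEC. P4 and P5 overlapped on it, and the difference was -0.32 (SE 0.39, adjusted p = 0.634). The variant b probe gave -0.62 (adjusted p = 0.291 over all probes). Another variant a probe was not well above background in WT P4, het P4 or het P5. It gave -0.080 (limma adjusted p = 0.805 over all probes). A probe designed to another cDNA (AK042926) lies in the opposite orientation to the rest of the gene and gave 0.14 (adjusted p = 0.747). Averaged over its kept probes, the opposite-orientation probe included, Dst was called higher in P4, at 0.87 (adjusted p = 0.0462), so the gene's call depends on which probe stands for it. The difference between the variant e and the other probes was not tested. Below are the sequences of the probes designed to variants e and b, printed 5′ to 3′ from the scanner files, with positions in the array design's mm7 build. They lie at chr1:34406164-34406223 and chr1:34517635-34517694, both on the plus strand. No gene annotation of that build was used here, so exon and UTR are not stated.
Dst variant e probe: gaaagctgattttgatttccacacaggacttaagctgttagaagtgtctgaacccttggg
Dst variant b probe: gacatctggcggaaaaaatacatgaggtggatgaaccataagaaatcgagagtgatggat

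**Figure D2:**
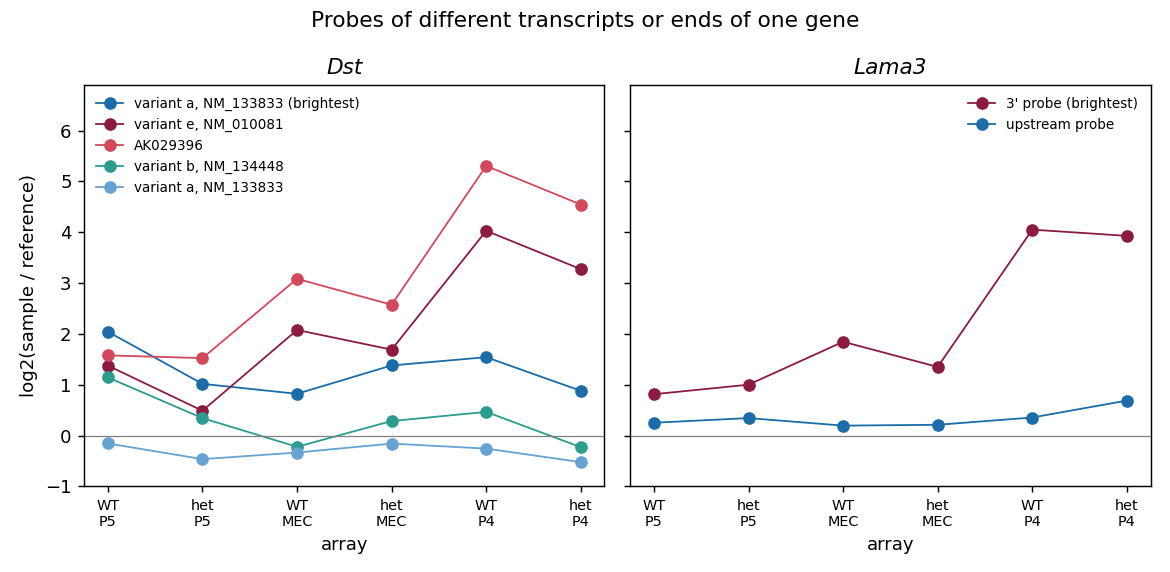
Log2 ratio of sample over reference (y axis) on the 6 arrays (x axis, 1 array per point, lines join the points of a probe) for 5 Dst probes and both Lama3 probes. The variant e and AK029396 probes of Dst and the 3′ probe of Lama3 are highest in P4, while the other probes stay between -0.52 and 2.04 on every array.

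Plec encodes plectin, which links the beta 4 integrin tail to keratins and is also used far outside epithelia. Its brightest probe read 0.17 in WT P4, 0.73 in WT P5, -0.36 in het P4, 0.14 in het P5, -1.08 in WT MEC and -0.32 in het MEC. The P4 and P5 arrays overlapped. The difference was -0.53 (SE 0.36, 95% confidence interval -1.45 to 0.39, limma adjusted p = 0.389). It was -0.56 within WT alone and -0.50 within het alone. The SE also holds the unlike differences of het from WT in the sorted cells and in MEC, given below. All 5 kept Plec probes gave a lower value in P4, from -0.22 to -0.53, and none was called. The probe designed to a dendritic cell cDNA lies in the opposite orientation to the other 4 and was not well above background in WT P4. In the 4 sorted arrays alone the brightest probe was called lower in P4 at the same size (adjusted p = 0.0255), as were 12.9% of all genes in that fit.

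The laminin-332 chains were the other strongly different pair. Lama3, the alpha 3 chain, read 4.05 in WT P4 and 3.93 in het P4, 0.81 in WT P5 and 1.001 in het P5, and 1.85 and 1.35 in WT and het MEC on its 3′ probe. The lowest P4 array was 2.93 above the highest P5 array, and the fitted difference was 3.08 (SE 0.20, limma adjusted p = 0.00266), 8.48-fold. The gene's other probe, which lies 125425 bases upstream, stayed between 0.20 and 0.69 on all 6 arrays, and its difference of 0.22 was not called (adjusted p = 0.371 over all probes). Lama3 is known to have a long and a short alpha 3 form that share the 3′ end.

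Lamb3, the beta 3 chain, is known from laminin-332. It read 4.57 in WT P4 and 4.01 in het P4, 1.06 in WT P5 and 0.73 in het P5, and 2.46 and 2.11 in WT and het MEC. No P4 array came within 2.95 of a P5 array. The difference was 3.40 (SE 0.14, limma adjusted p = 0.00199), 10.5-fold. Its single probe spans a splice junction, with its ends at chr1:192893546-192896077 on the plus strand of mm7, and is printed because this 1 sequence carries the result.
Lamb3 probe: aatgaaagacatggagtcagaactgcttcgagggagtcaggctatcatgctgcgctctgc

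The laminin-binding partners also rose in P4. Itga3, which pairs with the beta 1 integrin to bind laminin-332 outside hemidesmosomes, read 1.43 in WT P4, 1.15 in het P4, 0.50 in WT P5, 0.37 in het P5, 0.35 in WT MEC and 0.37 in het MEC. Both P4 arrays lay above the other 4. The difference from P5 was 0.86 (SE 0.14, limma adjusted p = 0.0207), and it was not called on the scanner software's own ratio (0.78, adjusted p = 0.0846). A second probe gave 0.93 (adjusted p = 0.0557 over all probes) and the last, farther 5′, 0.14.

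Cd151, the tetraspanin that holds the laminin-binding integrins in complexes, read 2.10 in WT P4, 2.58 in het P4, 0.83 in WT P5, 1.18 in het P5, 1.45 in WT MEC and 1.53 in het MEC. P4 was highest and P5 lowest, without overlap. The difference was 1.34 (SE 0.15, limma adjusted p = 0.00857), 2.53-fold. Only 1 probe reads this gene.

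**Figure D3:**
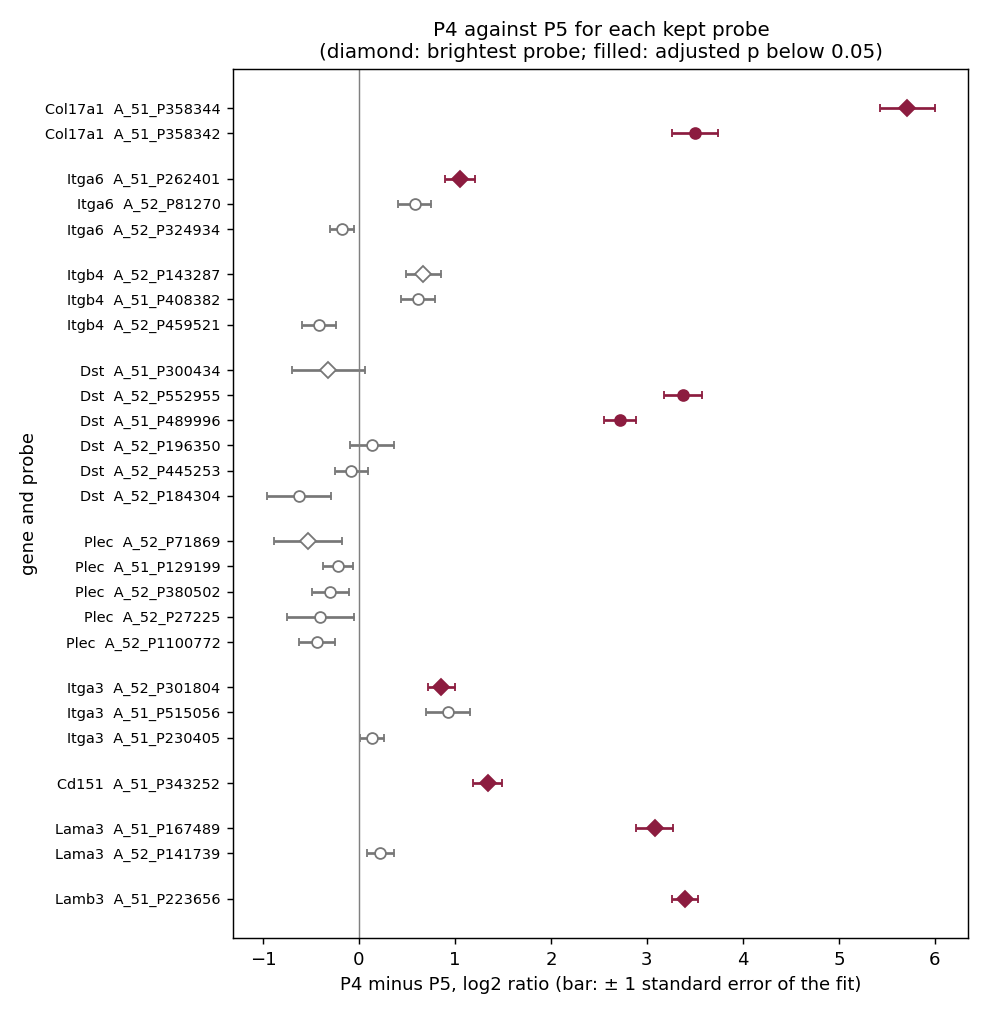
Difference of P4 from P5 (x axis, log2 ratio, bars ± 1 standard error of the additive fit) for the 26 kept probes of the 9 genes (y axis). Filled symbols are probes called at an adjusted p below 0.05 over all probes and diamonds are each gene's brightest probe; the 2 filled Dst probes stand at 2.72 and 3.38, apart from the 4 open ones.

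Probe by probe, 9 of the 26 kept probes were called higher in P4 and 0 lower, against 6.95% and 7.07% of all probes. Every P4 against P5 call rests on both P4 arrays. Without WT P4 the limma fit, left with 1 residual degree of freedom, called 0 of 24830 genes (4736 at an unadjusted p below 0.05), and Col17a1, Lama3 and Lamb3 had adjusted p = 0.0946. Without het P4 it called 0 of 24824 (4380 unadjusted), with Col17a1 at 0.0837. Without WT P5, Col17a1, Itga6, Lama3 and Lamb3 remained called (2.29% of all genes called higher), and without het P5 Col17a1, Lama3, Lamb3 and Cd151 (6.23%). With the arrays centred on their median in place of loess, 24.2% of the calls were higher in P4 in place of 50.3%, and Itga3 (0.35, adjusted p = 0.248) and Itga6 (0.64, adjusted p = 0.0583) were no longer called.

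Against total epithelial cells, P4 had 7 of the 9 genes called higher and 0 lower (all genes, 9.48% and 8.34%). The median difference over the 9 was 1.25, against 0.053 over all genes. Col17a1 was higher by 2.92 (limma adjusted p = 0.00867), Lama3 by 2.39 (0.00689) and Lamb3 by 2.01 (0.00608). The integrins followed, Itgb4 at 1.27 (adjusted p = 0.0161), Itga6 at 1.25 (0.0128) and Itga3 at 0.93 (0.0177), and then Cd151 at 0.85 (0.0261). Itgb4 was thus called against MEC while it was not against P5. Dst (0.11) and Plec (0.60) were not called on their brightest probes, whereas the variant e probe of Dst was (1.77, adjusted p = 0.00714 over all probes).

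P5 against MEC had 0 genes called higher and 2 called lower (all genes, 2.03% and 4.12%). The 2 were Col17a1, at -2.79 (limma adjusted p = 0.0167), and Lamb3, at -1.39 (0.0152). Lama3 was at -0.69 and Cd151 at -0.49, neither called. Itga3 (0.073), Itga6 (0.20) and Itgb4 (0.59) were not lower in P5 than in MEC, and none of these was called. The order of levels was P4, MEC, P5 for Col17a1, Lamb3, Lama3 and Cd151, with MEC and P5 not called apart for Lama3 and Cd151. For Itga3 and Itga6, P4 was above P5 and MEC, which were not called apart.

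Both comparisons with MEC moved with the scaling and with the makeup of MEC. Median centring shifted the median of all genes by -0.50 in P4 against MEC and by -0.42 in P5 against MEC. Under median centring 25.3% in place of 53.2% of the calls in P4 against MEC were higher, with 16.8% of all genes called higher and 49.6% lower. On that scale 3 of the 9 genes stayed above 0 and were called higher in P4 (Col17a1, Lama3 and Lamb3), and 5 stayed above the shifted median, Col17a1 by 1.75. Cd151 turned from called higher to called lower, at -0.91 (adjusted p = 0.00212), and Dst was called lower at -1.39 (0.0363). In P5 against MEC median centring left 19.9% in place of 33.0% of the calls higher, and 7 of the 9 genes were called lower, as were 46.6% of all genes. With the local backgrounds as given, 40.1% of the calls in P4 against MEC were higher, and Itgb4 (adjusted p = 0.0884) and Cd151 (0.0627) were not called. The fibroblast markers, 7 of 7 called lower in P4 and in P5 than in MEC, summed to a ratio of 110 in WT MEC and 52.0 in het MEC, against 1.33 to 7.06 on the sorted arrays. Of the 7 endothelial markers, 6 were lower in P4 and in P5; they summed to 118 and 123 in MEC and 17.0 to 30.0 on the sorted arrays. Immune markers summed to 4.15 and 4.35 in MEC and 3.49 to 7.77 on the sorted arrays, adipocyte markers to 171 and 203 against 23.2 to 132, and Schwann cell markers to 6.85 and 10.2 against 7.32 to 8.89. The part of these cells in the differences from MEC was not tested. Without WT P4 or without het P4, 0 genes were called against MEC in the limma fit (5433 and 4618 at an unadjusted p below 0.05), and without WT P5 0 of the 9 were called in P5 against MEC. Without het MEC all 9 were called higher in P4 than in MEC, against 8.69% of all genes. In P5 against MEC, Dst and Plec were then called higher and Col17a1, Lama3 and Lamb3 lower, against 6.92% and 9.80% of all genes.

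Het against WT asks how the same genes differ between the ΔNp63 heterozygous and the wild-type samples. Over the 3 populations together, 0 of the 9 genes were called by limma, as were 0% of all genes (smallest adjusted p 0.28, 3653 genes at an unadjusted p below 0.05). The count was also 0 under each other setting of background, scaling, probes and channel. The fitted differences ran from -0.46 for Itga6 (SE 0.13) and -0.41 for Lamb3 (SE 0.11), both with adjusted p = 0.28, to 0.30 for Cd151 (SE 0.13, adjusted p = 0.362). Col17a1 was at 0.045 (SE 0.24, 95% confidence interval -0.57 to 0.66) and Lama3 at -0.14 (SE 0.16). Dst was at -0.38, Itgb4 at -0.26, Itga3 at -0.13 and Plec at -0.12. With the local backgrounds as given, the fitted differences were 0.75 for Col17a1, 0.41 for Lama3, 0.38 for Cd151, 0.069 for Lamb3, 0.052 for Itgb4 and 0.027 for Itga3. They were -0.35 for Itga6, -0.22 for Dst and -0.096 for Plec, so 4 of the 9 turned sign. In the 4 sorted arrays alone, where 1933 genes (7.78%) were called, Dst was the only one of the 9 called, at -0.84 (adjusted p = 0.013). Leaving out either MEC array gave the same values, since the other then adds nothing to the genotype term.

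Within a population, het against WT is 1 array against 1, with no test. The error from printing and scanning on 1 array, from 245 probes printed 10 times each, gave 0.13 for such a difference; it does not cover animals. In P4, 0 of the 9 genes were 2-fold apart (all genes, 3.55% higher and 0.459% lower). In P5 1 was, Dst, lower in het (all genes, 2.28% higher and 0.89% lower), and in MEC 0 were (1.17% and 1.05%). The medians over the 9 genes were -0.28, -0.33 and -0.24 in P4, P5 and MEC, against 0.079, 0.076 and 0.0049 over all genes. With the local backgrounds as given they were 0.29, -0.22 and 0.11, so only the P5 median kept its sign.

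Itga6 was lower in het in each population, at -0.33 in P4, -0.73 in P5 and -0.32 in MEC. It stayed lower under each of the 9 other processing settings, from -0.96 to -0.13, from -1.24 to -0.65 and from -0.68 to -0.23. Lamb3 read -0.56, -0.33 and -0.35, but 0.29, -0.22 and 0.13 with the backgrounds as given. Cd151 read 0.48, 0.35 and 0.072, and 0.65, 0.36 and 0.14 with the backgrounds as given, but -0.17, -0.17 and -0.34 with median centring.

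The plakins' brightest probes went opposite ways in the sorted cells and in MEC. Dst in het minus WT stood at -0.66 for P4, -1.03 for P5 and 0.56 for MEC; with the backgrounds as given it was -0.40, -0.98 and 0.71. For Plec it was -0.54, -0.59 and 0.76, and -0.42, -0.57 and 0.71 as given. These signs held under the 9 settings tried. The variant e probe of Dst, in contrast, was lower in het in all 3 populations, at -0.76, -0.89 and -0.39. With the backgrounds as given it was at 0.052, -0.77 and -0.00074, so its sign in P4 depends on the background step. The AK029396 probe of Dst, 606 bases away, gave -0.76, -0.054 and -0.51. As given it read 0.75, 0.25 and 0.43, so its sign turned in all 3 populations. The other Plec probes did not all share the signs of the brightest. The probe designed to BC024074 was higher in het throughout, at 0.47 in P4, 0.11 in P5 and 0.48 in MEC. The rest gave -0.27, -1.06 and 0.45, then -0.11, -0.28 and 0.36, and 0.038, -0.49 and 0.13 on the opposite-orientation probe.

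**Figure D4:**
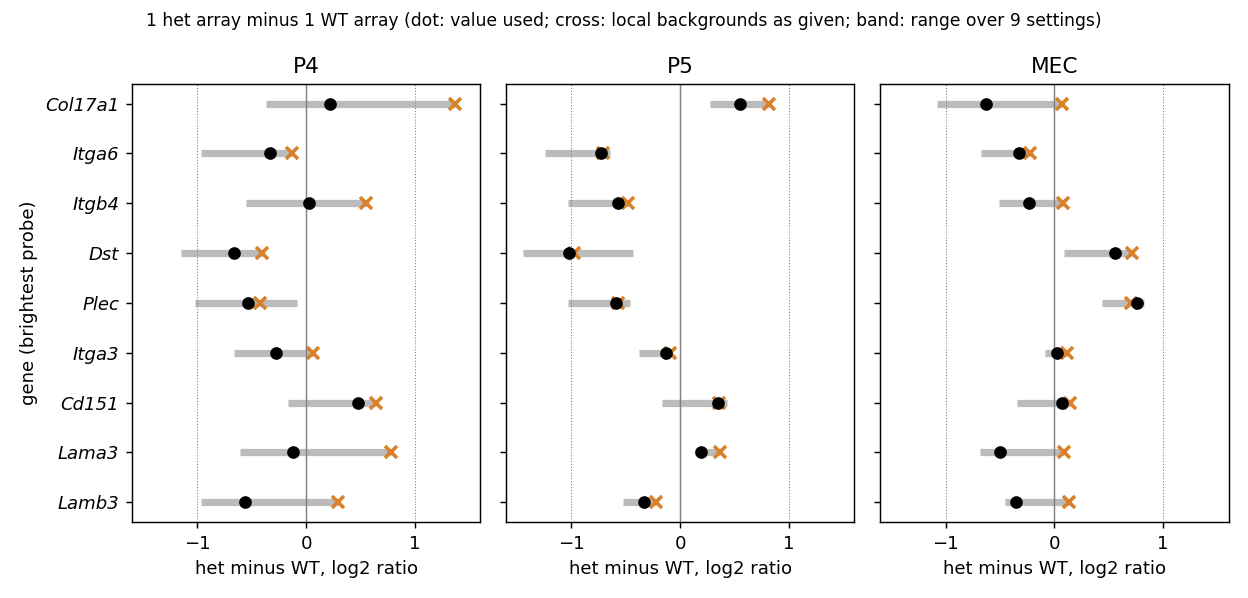
Difference of the het array from the WT array (x axis, log2 ratio) within P4, P5 and MEC for the brightest probe of each gene (y axis): dots are the values used, crosses those with local backgrounds as given, and grey bands the range over 9 processing settings, with dotted lines at a 2-fold difference. Itga6 lies left of 0 in all 3 panels, and Dst and Plec lie left of 0 in P4 and P5 and right of it in MEC.

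Col17a1 was 0.22 higher in het P4 and 0.54 higher in het P5, and 0.63 lower in het MEC. With the backgrounds as given it was 1.37, 0.82 and 0.075. Lama3 read -0.12, 0.19 and -0.49, and 0.78, 0.37 and 0.093 as given. Itgb4 read 0.028, -0.57 and -0.24, and 0.55, -0.48 and 0.081 as given. Itga3 read -0.28, -0.13 and 0.021, and 0.061, -0.093 and 0.11 as given. Marker levels also differed by genotype: the basal markers' mean log2 ratio was 5.25 in WT and 5.34 in het P4, 0.60 and 1.14 in P5, and 3.16 and 2.99 in MEC. Luminal markers had means of 1.58 and 1.70 in P4, 4.95 and 4.73 in P5, and 3.62 and 3.99 in MEC, where 3 of 10 were at least 2-fold higher in het. Adipocyte markers had means of 1.27 and 1.63 in P4, 0.54 and 1.21 in P5, and 2.80 and 2.78 in MEC. Their ratios summed to 65.7 and 132 in P4, 23.2 and 74.0 in P5, and 171 and 203 in MEC, most of it Fabp4. Het minus WT in P4 and P5 was 1.06 and 1.85 for Fabp4 and 0.84 and 1.52 for Lpl. It was 0.12 and 0.25 for Cidec, 0.0056 and -0.12 for Plin1, and -0.25 and -0.11 for Adipoq. Fibroblast markers had means of -1.79 and -1.30 in P4, -3.48 and -2.34 in P5, and 2.05 and 1.12 in MEC. Their part in the genotype differences was not tested.

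The basement membrane list, the matrix around the junction, went with the 9 genes in P4 against P5. Of its 20 measured genes, 11 were called higher in P4 and 0 lower, with a median of 1.70. Of all genes, 7.58% were called higher and 7.47% lower, which holds for the lists below too. The 3 highest were Col7a1, the anchoring fibril collagen below the hemidesmosome, at 5.19 (limma adjusted p = 0.00451), Sparc, a matrix glycoprotein, at 4.41 (0.0055), and Col4a1, a chain of the collagen IV network, at 4.27 (0.00505). The 3 lowest were Lama5 at -0.43, Col4a3 at 0.014 and Lamb2 at 0.047, none called. Against MEC, 7 were higher and 1 lower in P4 (all genes, 9.48% and 8.34%), and 0 were higher and 9 lower in P5 (2.03% and 4.12%). Fibroblasts also make many of these proteins, and the fibroblast markers were at a mean of -1.79 and -1.30 on the P4 arrays against -3.48 and -2.34 on the P5 arrays; their part was not tested.

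Among 15 genes of other matrix receptors, integrin subunits and integrin adaptors, 8 were called higher in P4 than in P5 and 0 lower. Their median was 0.95. Itga9 was at 2.65 (limma adjusted p = 0.00256), Parva, an actin-binding adaptor, at 1.53 (0.00458), and Itgb1 at 1.40 (0.00509). Itgb1 encodes CD29, the protein on which the cells were sorted, so its difference is no finding. It is included in the 8 and in the median above. The lowest were Itgb6 at -0.81, Itgb5 at -0.11 and Itga2 at 0.17, none called.

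The other plakins split. Dsp, the desmosomal plakin, was called higher in P4 at 1.15 (limma adjusted p = 0.014). Evpl and Ppl, which build the cornified envelope in stratified epithelia, were called lower at -2.91 (0.00348) and -1.20 (0.0119). Macf1 (0.69) and Eppk1 (0.64) were not called. Of 10 other tetraspanins, 0 were called higher and 4 lower: Tspan1 at -5.29, Cd82 at -2.93, Tspan8 at -1.35 and Tspan14 at -1.17. Their 3 highest were Tspan4 (0.64), Cd63 (0.43) and Cd53 (0.32), none called.

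Of 5 enzymes that process laminin-332, Mmp2 was called higher in P4 at 2.10 (limma adjusted p = 0.00698). Bmp1 was at 0.69, Mmp14 at 0.51 and Plg at -0.35, none called, and Tll1 was not well above background on the 4 sorted arrays. All 4 basal keratins that plakins bind were called higher in P4: Krt5 at 3.19 (adjusted p = 0.00337), Krt17 at 2.97 (0.00256), Krt14 at 2.47 (0.0027) and Krt15 at 2.23 (0.00475). In het against WT, 0 genes of any of the 6 lists were called.

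**Figure D5:**
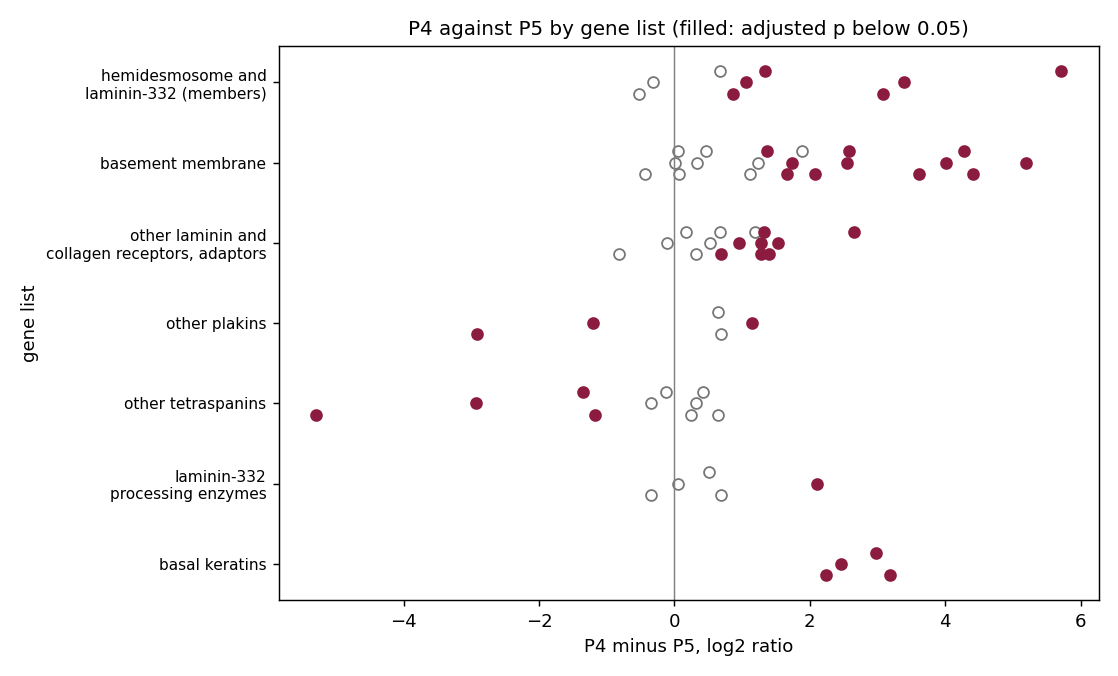
Difference of P4 from P5 (x axis, log2 ratio) for the 9 genes and for the genes of 6 related lists (y axis). Each point is 1 gene, spread vertically only to separate points. The list labelled as laminin and collagen receptors also holds integrin subunits of other kinds. Filled points are called at an adjusted p below 0.05; basement membrane, receptor and keratin genes lie mostly right of 0, and the called tetraspanins, from -5.29 to -1.17, left of it.

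The genes with the most similar profiles were found among 16453 genes above background on all 6 arrays, by the root mean square distance of the centred log2 ratios over the 6 arrays. For Col17a1 they were Acta2 (0.15), Actc1 (0.26), Tagln (0.27), Acta1 (0.27) and Igfbp3 (0.29), of which the actins are near-identical in sequence and may share signal. Lama3 was nearest to Kif1a (0.11), followed by Maob, Ptpn13, Cdh3, which encodes the basal P-cadherin, and Psd2 (0.19). Lamb3 was nearest to Prss23 (0.16), followed by Ctnnal1, Actg2, the basal epithelial transcription factor gene Bnc1, and Sbspon (0.23). For Cd151 the nearest was Eln (0.061), which encodes elastin, then Clstn1, Fam180a, Ramp3 and Syt11 (0.12).

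Itga6 was nearest to Cdcp1 (0.11), then Pdlim7, Ptk7, Pgam1 and Ankrd10 (0.16). Itga3 had Acap3 (0.063), Gpr141b, Tns4, a focal adhesion protein's gene, Rab6a and Ppp1r18 (0.096). For Itgb4 the list was Afap1 (0.083), Tmsb10, Kifc3, Wsb1 and Lrrc71 (0.18). Dst on its brightest, variant a probe had Cdk17 (0.12), Tnfrsf21, Sqle, Spsb4 and Sema4f (0.18). Plec had Fgfr1 (0.14), Cav2, Niban2, Lama5, itself a laminin chain of the basement membrane list, and Eya2 (0.17).

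Promoter sequence was at hand for 5 of the 9 genes, as 9 transcription starts in RefSeq's GRCm38.p6 set. In the 250 bases upstream of each start, neither the AP-1 motif TGANTCA nor the strict p63 motif, 2 copies of CATG with 6 bases between, was found on either strand, in 0 of the 9. Those motifs occur in 6.75% and 0.49% of all 32851 promoters of that length. The loose p53-family form, 2 copies of CNNG with 6 bases between, was found in 8 of the 9, against 63.5% of all promoters, and every strict match is also a loose one. A match here is a description of letters, not of binding. Shown are the 250 bases before the start of Col17a1 (chr19:47692043-47692292, minus strand) and before the first start of Lamb3 (chr1:193301744-193301993, plus strand), the 2 genes with the largest differences that have a promoter listed, with the loose motif in capitals.
Col17a1 promoter: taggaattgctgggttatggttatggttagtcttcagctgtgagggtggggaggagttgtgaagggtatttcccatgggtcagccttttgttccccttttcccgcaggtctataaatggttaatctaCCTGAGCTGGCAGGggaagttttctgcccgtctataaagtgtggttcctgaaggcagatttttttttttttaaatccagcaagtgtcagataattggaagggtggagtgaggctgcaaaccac
Lamb3 promoter: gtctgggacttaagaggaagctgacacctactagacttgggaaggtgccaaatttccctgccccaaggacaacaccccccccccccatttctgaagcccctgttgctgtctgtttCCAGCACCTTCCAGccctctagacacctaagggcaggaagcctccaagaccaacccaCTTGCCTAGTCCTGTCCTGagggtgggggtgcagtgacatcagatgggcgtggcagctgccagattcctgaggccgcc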

How the data were processed

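RNA from 6 mammary cell samples was hybridised to 6 two-colour Agilent arrays of 45018 spots. Per the file headers, the authors scanned and extracted them with Agilent Feature Extraction 9.5.3.1, and the deposited values are spot and local background intensities of each channel and a log10 ratio of Cy5 over Cy3. The deposited series table holds log2 ratios of sample over reference: its columns correlated with the scanner ratios at 0.988 to 0.999 with a slope near 1, and had medians of -0.044 to 0.10. How that table was filtered is not given in the sources used here.

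Local backgrounds that the scanner flagged, or that stood over 6 median absolute deviations from the array's median, were replaced by the array's median background (237 to 935 spots per channel). Intensities were then corrected by normexp with an offset of 50 and normalized by loess (span 0.3) in limma 3.58.1 under R 4.3.3. This replacement had been planned as an alternative and the backgrounds as given as the main setting; the roles were exchanged after the values were seen. As given, a few spots of up to 30168 against a median of 37 set the estimated background of the WT P4 reference channel to -559, against -0.83 after replacement. For the brightest probe of each of the 9 genes, the differences between genotypes are also given with the backgrounds as given.

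Control spots and 74 to 236 outlier spots per array were left out. A probe was kept if the scanner called its Cy5 signal well above background on 2 or more arrays, and a gene was read by its brightest kept probe. Gene names of the 41174 probes came through RefSeq accessions for 22951, symbols for 6659 and synonyms for 3109, and stayed as the array gives them for 8455. Differences were fitted with lmFit and eBayes, with p-values adjusted by Benjamini-Hochberg over all genes, or over all probes where stated. They measure only the spread between these samples, which includes population-by-genotype differences. The script was tested on simulated data.

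The genes and lists were chosen with earlier results of these data known. All probes of the 9 genes are described. From each list the 3 genes highest and the 3 lowest in P4 against P5 are named, and for each of the 9 genes the 5 of most similar profile; Tspan14 and the sequences shown were chosen after values were seen. Marker lists covered basal, luminal, fibroblast, endothelial, immune, adipocyte and Schwann cells. Alternatives were other backgrounds, offset, scaling, probe filters and summaries, the scanner ratio, the series table, Cy5 alone, the 4 sorted arrays alone and each array left out.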

Additional observations from a re-analysis of the deposited data

Results flagged for a closer look

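On the brightest probes, the het minus WT difference had opposite signs in a sorted population and in MEC for 4 of the 9 genes. Counted were only genes for which both differences were larger in size than the printing and scanning error of 0.13. The share of all genes that meet this was not computed, so the count is no result about the 9 genes. The differences are between single arrays, and the difference between populations was not tested. For Dst, P4 (-0.66) and MEC (0.56) stood -1.22 apart and P5 (-1.03) and MEC -1.58 apart. For Plec, P4 (-0.54) and MEC (0.76) stood -1.29 apart and P5 (-0.59) and MEC -1.35 apart. Other probes of Dst and Plec did not all share these signs. Col17a1 was 0.85 higher by this measure in P4 than in MEC (0.22 and -0.63) and 1.17 higher in P5 (0.54). Lama3 was 0.68 higher in P5 (0.19) than in MEC (-0.49). With the backgrounds as given, the MEC differences of Col17a1 and Lama3 were 0.075 and 0.093, so their signs were then alike. Fibroblast markers summed to a ratio of 110 in WT MEC and 52.0 in het MEC, and to 1.33 in WT P5 and 3.77 in het P5; their part was not tested.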

How the results depend on the processing

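With 1 array per group, every test rests on the spread of 6 arrays, and no dye was swapped. The main counts of called genes were 3738 for P4 against P5, 4427 for P4 against MEC, 1526 for P5 against MEC and 0 for het against WT, and 995, 786 and 549 genes were at least 2-fold apart by genotype within P4, P5 and MEC. The cause of the changes below was not tested. No paired analysis was possible by replicate number because each group has 1 array; the model itself compares populations within genotype.

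With the backgrounds as given, 1687 genes were called in P4 against MEC and 976 in P5 against MEC, and the genotype difference turned to 0.027 for Itga3, 0.052 for Itgb4, 0.41 for Lama3 and 0.069 for Lamb3. With an offset of 0, 1720, 1457 and 966 genes were 2-fold apart within P4, P5 and MEC; on the scanner ratio they were 2403, 1855 and 1366, and on the authors' deposited ratios 2411, 1853 and 1364. Median centring called 16500 genes in P4 against MEC and 14447 in P5 against MEC. It turned P4 against MEC to -0.39 for Itga3, -0.46 for Itga6, -0.37 for Itgb4, -1.39 for Dst, -0.94 for Plec and -0.91 for Cd151. It turned P5 against MEC to -0.74 for Itga3, -1.10 for Itga6, -0.60 for Itgb4, -0.68 for Dst and -0.029 for Plec, het against WT to -0.32 for Col17a1 and -0.23 for Cd151, and the upstream Lama3 probe in P4 against P5 to -0.017.

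The mean over probes gave Dst 0.87 in P4 against P5 and -0.10 in P5 against MEC, and in het against WT Col17a1 -0.13 and Lama3 0.0019. Cy5 alone gave Itga3 -0.31 in P5 against MEC and Col17a1 -0.17 in het against WT. Fitting every probe called 2513 in P5 against MEC. The 4 sorted arrays alone called 7121 in P4 against P5 and 1933 in het against WT, with Lama3 at 0.032.

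Leaving out 1 array gave 0 to 7121 called genes in P4 against P5, 0 to 6903 in P4 against MEC, 0 to 4141 in P5 against MEC and 0 to 1933 in het against WT. Over the same fits, Dst ran from -0.81 to 0.17 in P4 against P5, from -0.59 to 0.81 in P4 against MEC and from -0.27 to 1.13 in P5 against MEC, and Plec from -0.059 to 1.26 in P4 against MEC. In P5 against MEC, Itga3 ran from -0.040 to 0.19 and Itga6 from -0.0014 to 0.40. In het against WT, Col17a1 ran from -0.21 to 0.38, Plec from -0.56 to 0.11 and Lama3 from -0.31 to 0.032.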
